A study of Mus musculus with 30 samples.

Results

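The genes described here are those of 4 chemokines that attract monocytes, Ccl2, Ccl7, Ccl8 and Ccl12, together with Ccr2, the receptor on classical monocytes. They were chosen by name, as 4 related ligand genes on mouse chromosome 11 and the main receptor of Ccl2, Ccl7 and Ccl12, and make up 5 of the 39676 genes listed and 5 of the 15926 tested. RNA was measured in 30 whole tumors grown under the skin of C57BL/6 mice from B16 melanoma cells, a mouse line that arose in this strain, and taken 8 days after inoculation. B16-IFNA4 tumors (B16.IFNα4.gB.luc, n = 10) secreted the type I interferon IFNα4, B16-IFNA9 tumors (B16.IFNα9.gB.luc, n = 10) secreted IFNα9, and B16-GFP tumors (B16.GFP.gB.luc, n = 10) carried the empty vector with GFP. In the secreting lines a retroviral promoter drove the interferon and GFP from 1 transcript in the tumor cells themselves. All 3 lines also carried the herpes simplex virus glycoprotein B with a cyan fluorescent protein, and firefly luciferase with puromycin resistance, so the controls shared these foreign proteins. Each type came from 1 transduced cell line, so the 10 tumors of a type are replicates of tumors and not of transduction.

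CCL2, CCL7 and CCL12 are small secreted proteins that bind CCR2 and draw Ly6C-high monocytes out of the bone marrow and into inflamed or cancerous tissue, where these cells become macrophages and dendritic cells. CCL8 belongs to the same family by sequence and position, but in mice its best-known receptor is CCR8, found on type 2 helper T cells and regulatory T cells, and it is made by tissue macrophages. Type I interferon and NF-κB signaling are both known to raise Ccl2, Ccl7 and Ccl12 in macrophages and stromal cells.

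The 4 ligand genes lie in 1 cluster on the plus strand of chromosome 11 (GRCm38), with Ccl2 at chr11:82035571-82037453, Ccl7 at chr11:82045712-82047525, Ccl12 at chr11:82101845-82103400 and Ccl8 at chr11:82115185-82116799. From the first base of Ccl2 to the last of Ccl8 the cluster spans 81.2 kb, and the eotaxin gene Ccl11 lies inside it, at chr11:82057823-82062955. Ccr2 lies on the plus strand of another chromosome, at chr9:124101950-124113557. Ccl12 and Ccl8 are immediate neighbors that moved in opposite directions in the data below, so the RefSeq promoters of both (GRCm38.p6, plus strand, 250 bases before the start and 50 from it) are shown, with the letters TATAAA in capitals. The Ccl12 window is chr11:82101595-82101894 and the Ccl8 window is chr11:82114935-82115234.

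Ccl12: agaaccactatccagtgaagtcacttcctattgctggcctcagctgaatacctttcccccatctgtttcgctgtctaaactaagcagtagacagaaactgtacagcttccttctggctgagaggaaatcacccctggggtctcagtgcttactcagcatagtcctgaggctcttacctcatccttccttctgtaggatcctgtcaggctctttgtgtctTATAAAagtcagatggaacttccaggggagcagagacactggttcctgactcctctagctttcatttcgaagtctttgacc

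Ccl8: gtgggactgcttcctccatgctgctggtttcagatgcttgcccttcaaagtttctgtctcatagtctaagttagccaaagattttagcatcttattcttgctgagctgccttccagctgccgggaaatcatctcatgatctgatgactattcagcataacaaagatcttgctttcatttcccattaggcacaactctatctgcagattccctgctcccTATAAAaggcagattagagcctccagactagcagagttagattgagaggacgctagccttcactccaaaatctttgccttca

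In both windows TATAAA stood just ahead of the start, with its first base at position -31 in Ccl12 and -32 in Ccl8. These letters, searched on both strands after the sequences were seen, occur in 13.6% of the 32851 promoter windows of this length. Letters typical of an interferon-stimulated response element (TTTC, any 2 bases, TTTC) were found in neither window nor in that of Ccr2, and occur in 3.44% of all windows. Those of a STAT site (TTC, any 3 bases, GAA) and both patterns of an NF-κB site were also not found in these 3 windows, and occur in 8.30%, 1.63% and 0.359% of all windows. A match or its lack describes only these letters in these windows.

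The coding sequences of the 4 ligands were 65.9% to 73.5% identical in pairs. The longest runs shared by any pair had 17 bases and are printed because they show how far the paralogs can be told apart by reads of 50 bases.

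Ccl2 and Ccl12: tctgtgctgaccccaag

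Ccl7 and Ccl8: tgcctgctgctcatagc

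No stretch of 50 bases in any exon of the 4 ligands occurred in another gene, so a read that matches 1 of these ligands without a mismatch matches no other annotated gene. For Ccr2, 1.91% of the stretches also occurred in other genes.

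Libraries held between 14598517 and 19788383 counted reads. Ifna4 was counted in every IFNα4 tumor and in no other, and Ifna9 in every IFNα9 tumor and in no other, as the labels say. GFP tumor 7 and IFNα9 tumor 5 stood apart from their types. GFP tumor 7 had the lowest level of its type for all 5 genes, for the leukocyte gene Ptprc (19.5 CPM against 50.1 CPM in the next tumor) and for Csf1r. IFNα9 tumor 5 had the lowest level of its type for Ccl2, Ccl7, Ccl12, Ccr2 and Ptprc. All tumors were kept. Changes in level between types were also fitted without each tumor in turn. Differences between genes within a tumor were tested again only against GFP tumors and only without GFP tumor 7. How far those differences rested on IFNα9 tumor 5 was not tested.

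Ccl2, Ccl7 and Ccl12 rose 4- to 5-fold in IFNα4 tumors and 2- to 3-fold in IFNα9 tumors, Ccr2 rose 3- to 4-fold in both, and Ccl8 fell in both. In IFNα4 against GFP tumors, 4 of the 5 genes were higher and 1 was lower, where 31.3% of all tested genes were higher and 34.1% lower at an adjusted p under 0.05. In IFNα9 against GFP tumors the members counted 4 higher and 1 lower, where 26.9% of all genes were higher and 28.9% lower. The median change of all tested genes was 0.01 on the log2 scale in the first comparison and 0.00 in the second. Over the 5 members the median change was 2.10 and 1.34. Changes are log2 fold changes from the quasi-likelihood test of edgeR, adjusted over the 15926 genes by the Benjamini-Hochberg method, and levels are CPM, that is, counts scaled to a common library size with TMM factors.

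**Figure D1:**
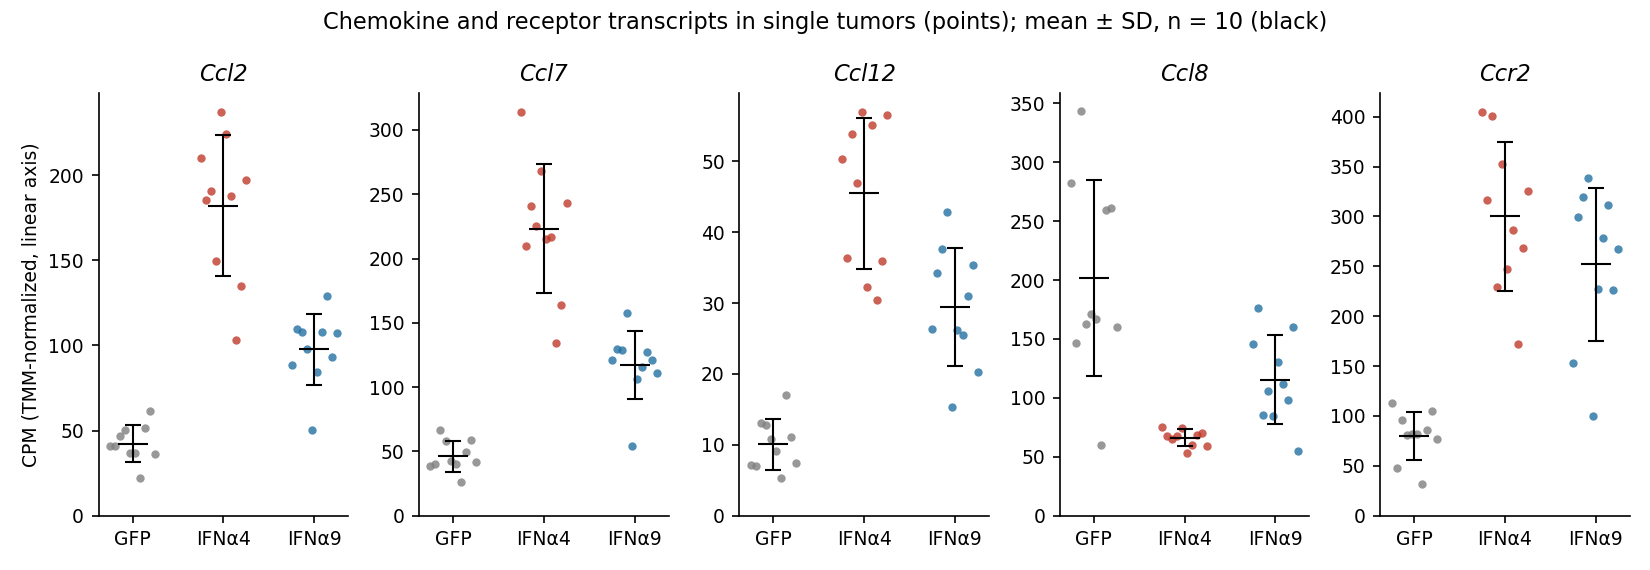
Level of each gene in CPM (vertical axis, linear, from 0, a scale of its own in each panel) in GFP, IFNα4 and IFNα9 tumors, with 1 point per tumor and the mean ± SD of 10 tumors in black. Ccl2, Ccl7, Ccl12 and Ccr2 sit higher in both secreting types than in GFP tumors, whereas the 10 IFNα4 tumors cluster between 53.1 and 75.5 CPM of Ccl8, below 9 of the 10 GFP tumors.

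Ccl2 encodes the prototype CCR2 ligand, also called MCP-1. Its level had a lowest value of 22.1, a median of 41.0 and a highest value of 61.5 CPM in GFP tumors, and 103, 189 and 237 CPM in IFNα4 tumors. In IFNα9 tumors these values were 50.4, 102.5 and 129 CPM. Every IFNα4 tumor was above every GFP tumor, and 9 of the 10 IFNα9 tumors were above every GFP tumor, the exception being IFNα9 tumor 5. Ccl2 was 4.30-fold higher in IFNα4 tumors (log2 fold change 2.10, SE 0.16, edgeR adjusted p = 2.65e-12) and 2.31-fold higher in IFNα9 tumors (log2 fold change 1.20, SE 0.16, edgeR adjusted p = 2.64e-07) than in GFP tumors.

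Ccl7 encodes MCP-3, which binds CCR2 and several other receptors. GFP tumors held 26.3 to 66.5 CPM (median 42.2), IFNα4 tumors 135 to 314 CPM (median 221) and IFNα9 tumors 54.1 to 158 CPM (median 121). The types separated in the same way as for Ccl2, with IFNα4 tumors wholly above GFP tumors and only IFNα9 tumor 5 within the GFP range. The rise was 4.81-fold in IFNα4 tumors (log2 fold change 2.27, SE 0.16, edgeR adjusted p = 6.83e-13) and 2.53-fold in IFNα9 tumors (log2 fold change 1.34, SE 0.16, edgeR adjusted p = 4.99e-08).

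Ccl12 encodes MCP-5, a mouse ligand of CCR2 with no exact human counterpart. Per kb of exon it was the lowest ligand in all 3 types, and its level was 5.26 to 17.0 CPM in GFP tumors (median 10.0), 30.4 to 57.0 CPM in IFNα4 tumors (median 48.6) and 15.4 to 42.8 CPM in IFNα9 tumors (median 28.7). Again all IFNα4 tumors and 9 of 10 IFNα9 tumors exceeded every GFP tumor. Ccl12 rose 4.50-fold in IFNα4 tumors (log2 fold change 2.17, SE 0.19, edgeR adjusted p = 6.53e-11) and 2.92-fold in IFNα9 tumors (log2 fold change 1.54, SE 0.19, edgeR adjusted p = 9.78e-08).

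Ccl8 moved the other way. Per kb of exon it was the most abundant of the 4 in GFP tumors, where its level had a lowest value of 59.8, a median of 169 and a highest value of 344 CPM. IFNα4 tumors held 53.1, 67.8 and 75.5 CPM, and IFNα9 tumors held 54.9, 109 and 177 CPM. Of the GFP tumors, 9 were above every IFNα4 tumor, and GFP tumor 7 alone fell among them, so the types overlapped. Ccl8 was 3.04-fold lower in IFNα4 tumors (log2 fold change −1.61, SE 0.21, edgeR adjusted p = 1.25e-07) and 1.75-fold lower in IFNα9 tumors (log2 fold change −0.80, SE 0.21, edgeR adjusted p = 0.0015). The coefficient of variation of Ccl8 was 41.3% in GFP, 10.6% in IFNα4 and 32.7% in IFNα9 tumors. The low value in IFNα4 tumors was not particular to Ccl8, since that of Csf1r was 37.9% in GFP and 10.1% in IFNα4 tumors. GFP tumor 7, the lowest GFP tumor for both genes, is part of the GFP values, which were not computed without it. These differences in spread were not tested.

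Ccr2, the receptor, was counted at 31.8 to 113 CPM in GFP tumors (median 81.9), 172 to 405 CPM in IFNα4 tumors (median 301) and 100.2 to 338 CPM in IFNα9 tumors (median 273). All IFNα4 tumors were above all GFP tumors, as were 9 of the 10 IFNα9 tumors. Ccr2 rose 3.75-fold in IFNα4 tumors (log2 fold change 1.91, SE 0.20, edgeR adjusted p = 3.32e-09) and 3.15-fold in IFNα9 tumors (log2 fold change 1.65, SE 0.20, edgeR adjusted p = 9.8e-08). In whole tumors, more cells that carry Ccr2 and more Ccr2 RNA per cell cannot be told apart, and the same holds for each ligand.

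In all, the tumors of the 2 types did not overlap for 4 of the 5 genes in IFNα4 against GFP tumors, where 18.5% of tested genes were separate in this way. None of the 5 was separate in IFNα9 against GFP tumors, where 7.79% of tested genes were.

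The secreting types differed from each other in every ligand. Against IFNα4 tumors, 1 of the 5 genes was higher in IFNα9 tumors (10.5% of all tested genes) and 3 were lower (7.25% of all tested genes). Ccl2 was 1.86-fold lower (log2 fold change −0.90, SE 0.16, edgeR adjusted p = 0.000124), Ccl7 was 1.90-fold lower (log2 fold change −0.93, SE 0.16, edgeR adjusted p = 9.19e-05) and Ccl12 was 1.54-fold lower (log2 fold change −0.63, SE 0.18, edgeR adjusted p = 0.0161). Ccl8 was 1.74-fold higher (log2 fold change 0.80, SE 0.21, edgeR adjusted p = 0.00649). Ccr2 was the 1 gene that did not pass the test, at a log2 fold change of −0.25 with a 95% confidence interval of −0.66 to 0.15 (edgeR adjusted p = 0.415); the interval reaches from a lower to a slightly higher level in IFNα9 tumors.

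Single tumors followed these changes without a clean split. Of the IFNα9 tumors, 9 were below every IFNα4 tumor in Ccl7, 5 in Ccl2, 5 in Ccl12 and 2 in Ccr2, and 9 were above every IFNα4 tumor in Ccl8. None of the 5 genes was fully separate, where 2.83% of tested genes were. For each ligand the mean of the IFNα9 tumors lay between those of the GFP and IFNα4 tumors.

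**Figure D2:**
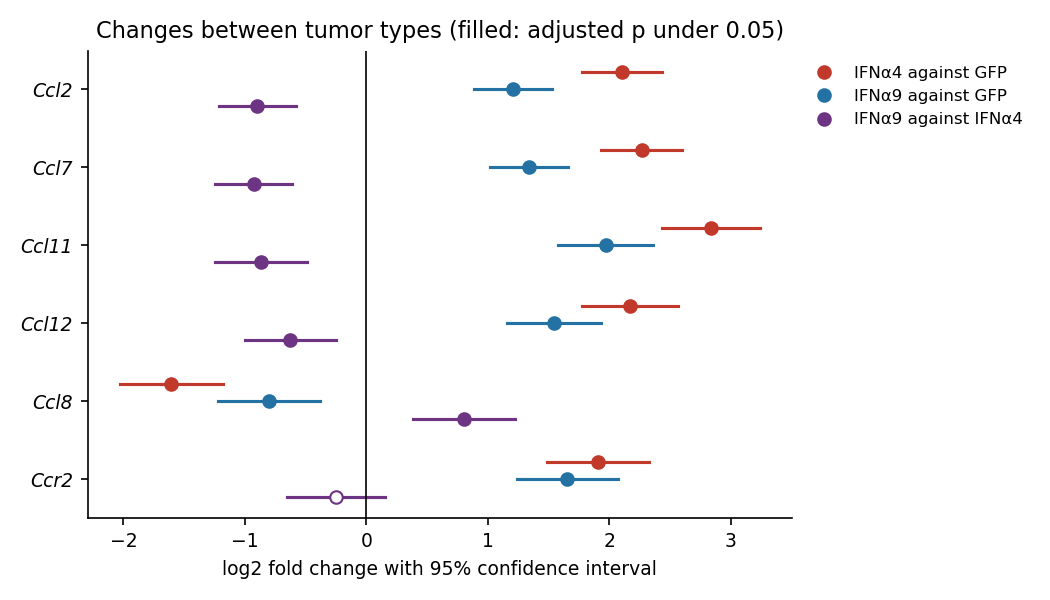
Log2 fold change of each gene (horizontal axis) with its 95% confidence interval in the 3 comparisons, with the genes of the chromosome 11 cluster in their order along it and Ccr2 last. Ccl8 lies left of 0 in both comparisons with GFP tumors and right of 0 in IFNα9 against IFNα4 tumors, opposite to its 4 neighbors, and the open point marks Ccr2, which did not pass the test between the secreting types.

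Whether the ligands changed together was tested on their difference within each tumor. The log2 level of Ccl8 minus that of Ccl2 averaged 2.16 ± 0.45 (SD, n = 10) in GFP tumors, −1.43 ± 0.43 in IFNα4 tumors and 0.20 ± 0.61 in IFNα9 tumors. This balance shifted by −3.58 in IFNα4 and −1.96 in IFNα9 tumors (permutation tests, two-sided, both adjusted p = 9e-05 over 9 tests), and each secreting type was wholly below the GFP tumors. It was 1.63 higher in IFNα9 than in IFNα4 tumors (permutation test, adjusted p = 0.00012). By contrast, none of the 6 tests of Ccl7 or Ccl12 minus Ccl2 passed, with shifts between −0.04 and 0.35 and adjusted p between 0.0842 and 0.665, so no difference in response was detected between Ccl2 and either of these ligands. Ccl7 was not tested against Ccl12.

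Per kb of exon, the scale on which levels of different genes can be compared, Ccl8 made up 76.1% ± 5.65 (SD, n = 10) of the 4 ligand transcripts in GFP tumors, 20.4% ± 4.35 in IFNα4 tumors and 43.7% ± 9.11 in IFNα9 tumors. Ccl7 made up 12.2%, 42.3% and 28.7% in the same order of types, Ccl2 7.81%, 24.4% and 17.0%, and Ccl12 3.90%, 12.9% and 10.7%. Without correction for length Ccl2 made up 14.8% in GFP and 27.4% in IFNα9 tumors, and Ccl8 13.3% in IFNα4 tumors. In IFNα9 tumors Ccl7 (32.5% ± 4.02) and Ccl8 (32.0% ± 8.04) were then about level in their means. By the median Ccl8 stayed ahead, at 34.2% against 31.9%. The leading transcript was Ccl8 in all 10 GFP tumors and Ccl7 ahead of Ccl2 in all 10 IFNα4 tumors. In IFNα9 tumors Ccl8 exceeded Ccl7 in 9 of 10. Per kb of exon, the sum of the 4 ligands changed less than its make-up. It was 508 ± 185 CPM per kb in GFP, 653 ± 111 in IFNα4 and 513 ± 106 in IFNα9 tumors, with overlapping ranges and no test. Its medians without correction for length were 273, 523 and 371 CPM, so its change depended on the length.

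**Figure D3:**
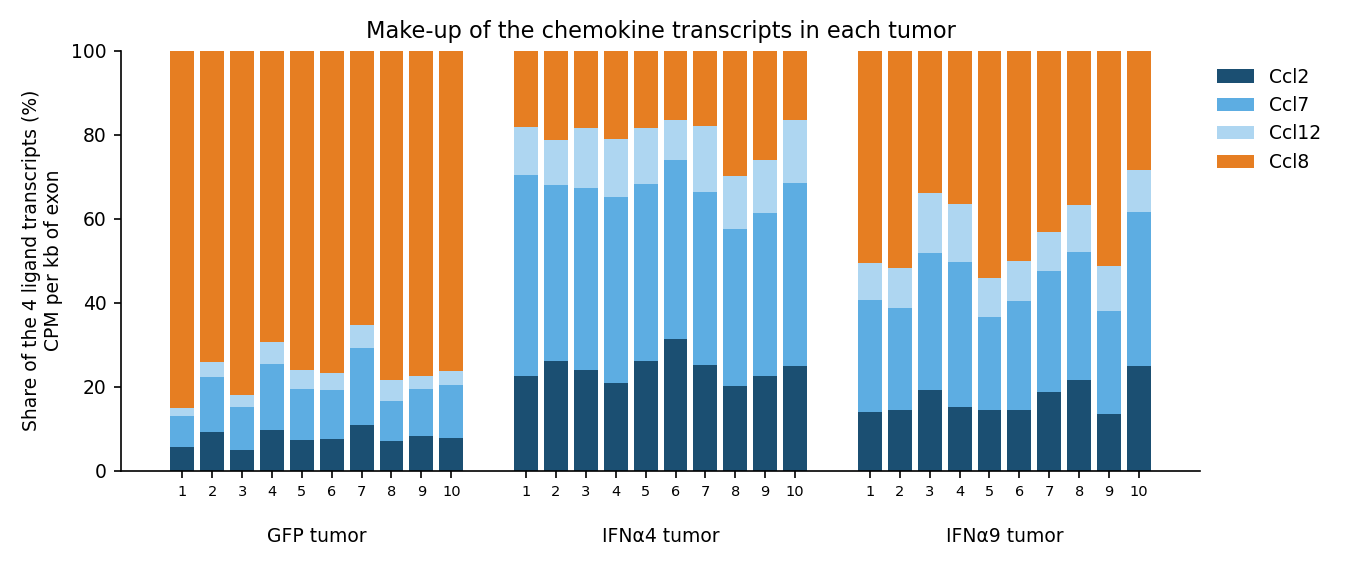
Share in percent of Ccl2, Ccl7, Ccl12 and Ccl8 in the sum of the 4 ligand transcripts (CPM per kb of exon), 1 bar per tumor, numbered by replicate within each type. Ccl8 takes between 65.3% and 85.0% of every GFP bar, between 16.5% and 29.8% of every IFNα4 bar, and between 28.4% and 54.1% of the IFNα9 bars.

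The order of levels per kb of exon was Ccl8, Ccl7, Ccl2, Ccl12, Ccr2 in GFP and in IFNα9 tumors, and Ccl7, Ccl2, Ccl8, Ccl12, Ccr2 in IFNα4 tumors. Neighbors in these orders kept their places in 9 or 10 of 10 tumors, except Ccl2 and Ccl8 in IFNα4 tumors, where Ccl2 was higher in 7 of 10. The place of Ccr2 depended on the length used, since all its exons cover 6760 bases and its first listed transcript 2999 bases. With the shorter length Ccr2 ranked above Ccl12 in all 3 types.

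The changes ran beside a change in the tumors' leukocytes. Ptprc, which encodes the pan-leukocyte protein CD45, averaged 80.6 ± 29.5 CPM in GFP, 507 ± 140 in IFNα4 and 354 ± 106 in IFNα9 tumors (SD, n = 10). Of 8 tested classical monocyte markers, 7 were higher in IFNα4 and 5 in IFNα9 tumors than in GFP tumors, and none was lower. Their summed level ranged from 208 to 772 CPM in GFP, 1370 to 2609 in IFNα4 and 735 to 1667 in IFNα9 tumors, and no marker was at 0 throughout a type. The list's median log2 fold change was 2.34 in IFNα4 and 1.23 in IFNα9 tumors. Ly6c2, which encodes the Ly6C surface protein of classical monocytes and was the highest of the list in both secreting types, was 9.48-fold and 5.11-fold higher (edgeR adjusted p = 2.18e-15 and 2.53e-12). Hp, the highest of the list in GFP tumors, passed in neither comparison (log2 fold change 0.12 and −0.41, edgeR adjusted p = 0.736 and 0.251).

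Macrophage markers went both ways. Of 9 tested, 3 were higher (Fcgr1, Cd68 and Mertk) and 2 lower (C1qc and Mrc1) in IFNα4 than in GFP tumors, and the same 3 were higher and none lower in IFNα9 tumors, with median log2 fold changes of −0.28 and −0.05. Their summed level was 467.5 to 2077 CPM in GFP, 1138 to 1903 in IFNα4 and 1055 to 1963 in IFNα9 tumors. Csf1r, the receptor of monocytes and macrophages for their growth factor, averaged 159, 131 and 154.5 CPM and passed no comparison (edgeR adjusted p = 0.177, 0.845 and 0.411). Fcgr1, which encodes a high-affinity receptor for IgG, was 5.86-fold and 3.25-fold higher in IFNα4 and IFNα9 than in GFP tumors (edgeR adjusted p = 4.63e-13 and 3.14e-09) and lower in IFNα9 than in IFNα4 tumors (log2 fold change −0.85, edgeR adjusted p = 0.000725). Mrc1, the mannose receptor of tissue-resident and type 2 polarized macrophages, was lower in IFNα4 than in GFP tumors (log2 fold change −0.78, SE 0.21, edgeR adjusted p = 0.00193) and was higher in IFNα9 than in IFNα4 tumors (log2 fold change 0.73, SE 0.21, edgeR adjusted p = 0.0143), though it did not pass between IFNα9 and GFP tumors (log2 fold change −0.05, edgeR adjusted p = 0.863). Other cell types moved too, though not all. Of 4 tested fibroblast markers, 1 was higher and 3 did not pass in each comparison with GFP tumors. Of 4 tested neutrophil markers, 1 was higher and 2 were lower in each. Of 3 tested keratinocyte markers, 2 were higher in IFNα4 tumors and none passed in IFNα9 tumors. All 5 tested nonclassical monocyte markers were higher in IFNα4 and 3 of them in IFNα9 than in GFP tumors, at a summed 23.4 to 110 CPM in GFP, 175 to 295 CPM in IFNα4 and 90.1 to 185 CPM in IFNα9 tumors, and of 6 dendritic cell markers 4 and 5 were higher and none lower. Of 5 skeletal muscle markers none passed in IFNα4 tumors and 3 were lower in IFNα9 than in GFP tumors. Of 6 tested T and NK cell markers, 6 were higher in IFNα4 and 5 in IFNα9 than in GFP tumors, at a summed 2.85 to 59.6 CPM in GFP, 62.7 to 155 CPM in IFNα4 and 42.6 to 104 CPM in IFNα9 tumors. Of 5 endothelial markers, 4 were lower in both comparisons, while Kdr was 2.55-fold higher in IFNα4 than in GFP tumors (edgeR adjusted p = 1.6e-08) and did not pass in IFNα9 tumors (edgeR adjusted p = 0.982). All 3 tested melanoma markers, led by Tyrp1, were lower in both, at a summed 7214 to 22820 CPM in GFP, 2157 to 3630 CPM in IFNα4 and 3367 to 8916 CPM in IFNα9 tumors. The part of these cell types in the members' changes was not tested.

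Relative to Ptprc in the same tumor, all 5 genes were lower in both secreting types, since Ptprc itself rose by 2.65 and 2.14 on the log2 scale, more than any of them. In IFNα4 against GFP tumors the shifts of the log2 ratio were −0.63 for Ccl2, −0.46 for Ccl7, −0.54 for Ccl12, −4.21 for Ccl8 and −0.80 for Ccr2 (permutation tests, two-sided, 30 tests, adjusted p between 6e-05 and 0.0376). In IFNα9 against GFP tumors they were −0.99, −0.86, −0.64, −2.95 and −0.55 (permutation tests, adjusted p between 6e-05 and 0.0081). Without GFP tumor 7, the shifts of Ccl7 and Ccl12 in IFNα4 tumors were −0.34 and −0.42 and no longer passed (permutation tests, adjusted p = 0.0704 and 0.0559). Those p values were adjusted over the tests against GFP tumors alone, fewer than the 30 above. Ccl8 to Ptprc was the only ligand ratio of these in which both secreting types were wholly below the GFP tumors.

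Relative to Csf1r, the 5 genes moved in both comparisons with GFP tumors in the same directions as their levels. In IFNα4 against GFP tumors Ccl2 was 2.26 higher, Ccl7 2.42, Ccl12 2.35 and Ccr2 2.09 on the log2 scale, and Ccl8 fell by 1.33, each with types that did not overlap (permutation tests, adjusted p between 6e-05 and 9e-05). In IFNα9 against GFP tumors the shifts were 1.14, 1.27, 1.49 and 1.58, and −0.81 for Ccl8 (permutation tests, adjusted p between 7.5e-05 and 0.000429). Between the secreting types the direction for Ccr2 depended on the reference gene, in tests that kept all tumors. In IFNα9 against IFNα4 tumors it was 0.25 higher relative to Ptprc (permutation test, adjusted p = 0.000109) and −0.51 relative to Csf1r (permutation test, adjusted p = 0.0359), while its level did not pass. No test of this comparison was repeated without IFNα9 tumor 5, the lowest of its type in Ccr2, so how far the shift beside Csf1r rested on that tumor was not tested. In this comparison Ccl2 and Ccl7 were lower beside both genes (−0.36 and −0.40 beside Ptprc, −1.11 and −1.15 beside Csf1r) and Ccl8 was higher beside both (1.27 and 0.52), with adjusted p of the permutation tests between 9e-05 and 0.0102. Ccl12 was lower beside Csf1r (−0.86, permutation test, adjusted p = 0.00015) and did not pass beside Ptprc (−0.11, adjusted p = 0.443).

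**Figure D4:**
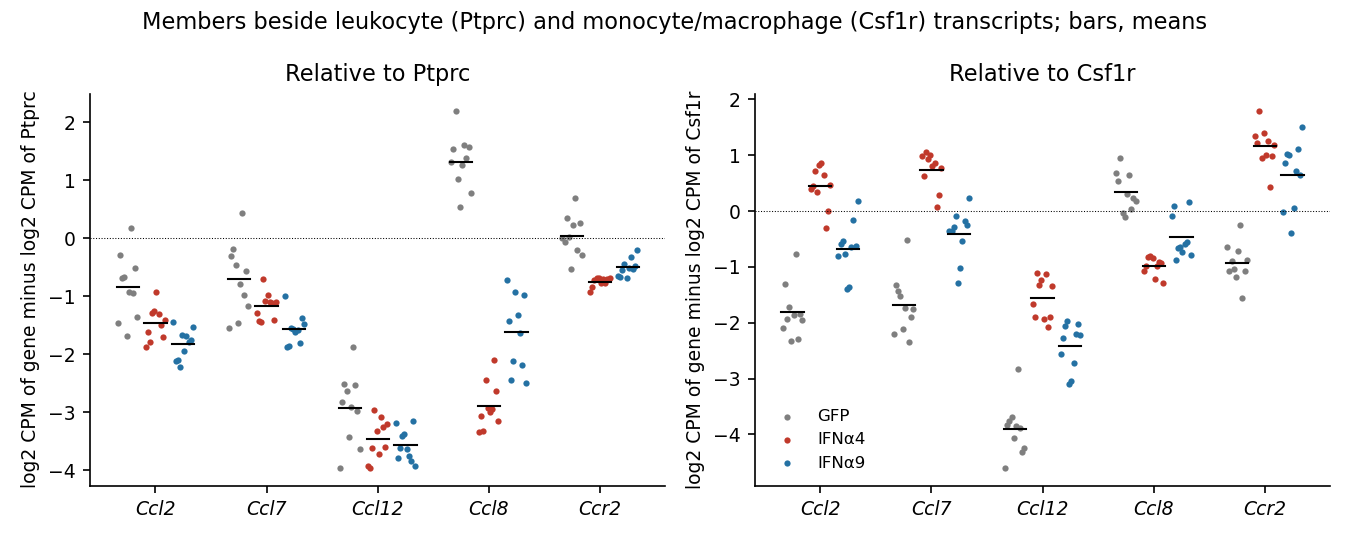
Log2 CPM of each gene minus log2 CPM of Ptprc (left) or of Csf1r (right) in the same tumor, with 1 point per tumor in GFP, IFNα4 and IFNα9 tumors and a bar at the mean of 10. Beside Ptprc, Ccl8 moves from a mean of 1.32 in GFP tumors to −2.89 in IFNα4 and −1.62 in IFNα9 tumors, and beside Csf1r, Ccl8 is the 1 gene whose means are lower in both secreting types than in GFP tumors.

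Ligands were also set against the receptor, a comparison chosen after the values were seen. The log2 ratio of Ccl2 to Ccr2 was 0.61 lower in IFNα9 than in IFNα4 tumors, that of Ccl7 was 0.65 lower and that of Ccl12 0.35 lower, while that of Ccl8 was 1.02 higher (permutation tests, two-sided, 12 tests, adjusted p = 0.00054, 0.00054, 0.0424 and 0.00355). In IFNα4 against GFP tumors the ratio of Ccl7 to Ccr2 rose by 0.33 (permutation test, adjusted p = 0.0424) and that of Ccl8 fell by 3.42 (adjusted p = 0.00018), while those of Ccl2 and Ccl12 shifted by 0.17 and 0.26 and did not pass (adjusted p = 0.276 and 0.182). In IFNα9 against GFP tumors the ratio of Ccl2 fell by 0.44 (permutation test, adjusted p = 0.0136) and that of Ccl8 by 2.40 (adjusted p = 0.00012), while those of Ccl7 and Ccl12 shifted by −0.31 and −0.09 and did not pass (adjusted p = 0.0793 and 0.624). These ratios restate the levels given above and are not independent of them.

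Within a type, tumors with more of 1 gene often had more of another. Over 10 tumors, Ccl2 and Ccl7 were correlated in GFP tumors (Pearson r = 0.89, permutation p = 0.00124, adjusted p = 0.0116 over 30 correlations, Spearman rho = 0.70, p = 0.0299, adjusted p = 0.0897), in IFNα4 tumors (r = 0.86, p = 0.00181, adjusted p = 0.0116, rho = 0.75, p = 0.0176, adjusted p = 0.0682) and in IFNα9 tumors (r = 0.85, p = 0.0275, adjusted p = 0.0458, rho = 0.64, p = 0.055, adjusted p = 0.115). Leaving out the 2 tumors farthest from the median of Ccl2 took r to 0.74, 0.41 and 0.22. Leaving out extreme tumors narrows the range and can by itself lower r, so these values cannot show what the relation rested on. Ccl7 and Ccl12 had the steadiest relation, with r of 0.82, 0.75 and 0.87 (permutation p = 0.00391, 0.00736 and 0.00017, adjusted p = 0.0168, 0.0234 and 0.00315), rho of 0.86, 0.79 and 0.90 (p = 0.0029, 0.0088 and 0.00081, adjusted p = 0.029, 0.0561 and 0.0121), and r of 0.70, 0.70 and 0.77 without the 2 tumors farthest from the median.

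With Ccr2, the 3 ligands Ccl2, Ccl7 and Ccl12 had r between 0.70 and 0.89 in the 2 secreting types (permutation p between 0.00194 and 0.0258, adjusted p between 0.0116 and 0.0456) and rho between 0.62 and 0.78 (p between 0.0108 and 0.0606, adjusted p between 0.0561 and 0.115). Without the 2 tumors farthest from the median, r was 0.31 to 0.69, a fall that the narrower range alone can bring. Ccl8 and Ccr2 were related in GFP tumors (r = 0.90, permutation p = 0.00021, adjusted p = 0.00315, rho = 0.95, p = 0.00014, adjusted p = 0.0042, and r = 0.78 without the 2 farthest tumors). In IFNα4 tumors r was 0.24 (permutation p = 0.503, adjusted p = 0.603, rho = 0.27, p = 0.448, adjusted p = 0.537) and in IFNα9 tumors it was −0.01 (permutation p = 0.982, adjusted p = 0.982, rho = −0.12, p = 0.76, adjusted p = 0.837), with r of 0.26 and −0.04 without the 2 farthest. Whether these coefficients differed between types was not tested. Without GFP tumor 7, r of Ccl8 and Ccr2 in GFP tumors was 0.74 and its adjusted p 0.0919, and none of the 9 correlations called in GFP tumors kept an adjusted p under the threshold. Without that tumor p was adjusted over the GFP correlations alone, a smaller family than above.

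**Figure D5:**
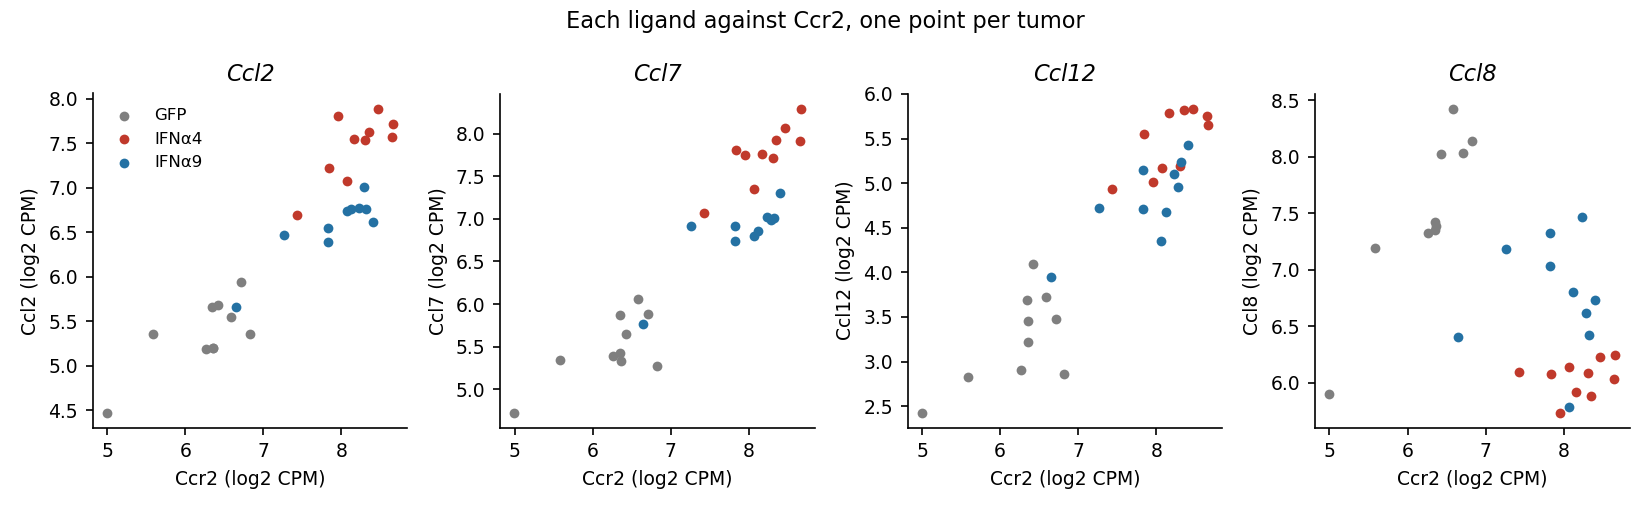
Log2 CPM of each ligand (vertical axis, 1 panel each) against log2 CPM of Ccr2 (horizontal axis), with 1 point per tumor. In IFNα4 and IFNα9 tumors r with Ccr2 was 0.75 and 0.89 for Ccl2, 0.83 and 0.85 for Ccl7, 0.70 and 0.75 for Ccl12, and 0.24 and −0.01 for Ccl8. In GFP tumors r was 0.76 for Ccl2, 0.70 for Ccl7, 0.62 for Ccl12 (not past the threshold) and 0.90 for Ccl8, and without GFP tumor 7 it was 0.35 for Ccl2 and 0.33 for Ccl7. The lone point at the lower left of each panel is GFP tumor 7.

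The genes most like each member were found by Pearson r over the 30 tumors after the mean of each type was subtracted, which leaves shared depth, shared tissue make-up and GFP tumor 7 in place. Ccl2 was followed most closely by Il1rl1 (r = 0.87), Ccl7 (0.86) and the predicted gene Gm15931 (0.85), and Ccl7 by Ms4a6d (0.89), Msr1 (0.89) and Ccl2 (0.86). Ccl12 was followed by Slfn2 (0.85), Pnp2 (0.83) and Ccl7 (0.82), and Ccr2 by Tlr13 (0.95), Lair1 (0.95) and Gm5431 (0.93). The nearest genes to Ccl8 were Cd209d (0.87), Cmtm6 (0.85) and Lipo3 (0.84), none of them on the list of another member. Within IFNα4 tumors alone these coefficients were 0.58, 0.11 and 0.42 and within IFNα9 tumors 0.91, 0.83 and 0.69, against 0.91, 0.89 and 0.94 in GFP tumors, where they were 0.78, 0.65 and 0.83 without GFP tumor 7. Without that tumor the same 3 genes were nearest to Ccl8 and to Ccr2, while Gpr35 took the place of Gm15931 for Ccl2, Fcgr1 that of Ccl2 for Ccl7, and Lyn that of Ccl7 for Ccl12. Cd209d, a C-type lectin, was also lower in IFNα4 than in GFP tumors (log2 fold change −1.20, edgeR adjusted p = 0.000109), whereas Cmtm6 and Lipo3 were higher (log2 fold change 0.40 and 0.70, edgeR adjusted p = 0.00231 and 0.000456).

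Other genes of the pathway were followed in a list of 33, of which 30 were tested. In IFNα4 against GFP tumors 24 were higher, 2 lower and 4 did not pass, in IFNα9 against GFP tumors 19 were higher, 2 lower and 9 did not pass, and in IFNα9 against IFNα4 tumors 9 were lower and 21 did not pass. The median log2 fold changes of the list were 0.80, 0.61 and −0.37. Ccl11, the eotaxin gene between Ccl7 and Ccl12, held 28.2 to 83.2 CPM in GFP, 264.6 to 601 CPM in IFNα4 and 109 to 389 CPM in IFNα9 tumors, with both secreting types wholly above GFP tumors. It was 7.15-fold and 3.91-fold higher than in GFP tumors (edgeR adjusted p = 3.23e-13 and 9.27e-10). Ccl1, the neighbor beyond Ccl8, was under the count filter.

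Among the other receptors, the eotaxin receptor gene Ccr3 (log2 fold changes 2.48 and 1.62 in IFNα4 and IFNα9 tumors) and Ccrl2 (2.27 and 1.66) rose in both comparisons with GFP tumors, while Ccr1 passed only in IFNα9 tumors (0.62, edgeR adjusted p = 0.0059) and had a value of 0.38 in IFNα4 tumors (edgeR adjusted p = 0.0685). Ccr1l1 was under the count filter. Ccr8, the receptor named above for CCL8 and looked up after the values were seen, was also under the filter, with 0 to 9 reads in GFP, 0 to 17 in IFNα4 and 2 to 15 in IFNα9 tumors. The atypical receptors, which take up chemokines without signaling for migration, rose as well, Ackr4 by 0.83 and 0.90, Ackr2 by 0.84 and 0.74, and Ackr1 by 0.77 in IFNα4 tumors, with 0.32 in IFNα9 tumors (edgeR adjusted p = 0.103).

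Of 13 tested genes of signaling below the receptor, 9 rose and 2 fell in IFNα4 tumors and 8 rose and 2 fell in IFNα9 tumors. The largest rise was that of Vav1 in IFNα4 tumors (log2 fold change 2.14) and of Dock2 in IFNα9 tumors (1.37), both activators of Rac GTPases in leukocytes. Gnb1, a G protein subunit made by most cells, fell most in both (−0.55 and −0.39). Of 9 genes that induce these chemokines or govern decay of their mRNA, 8 rose in IFNα4 and 4 in IFNα9 tumors, and Tnf rose most in both (log2 fold change 2.63 and 1.68).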

How the data were processed

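RNA of each tumor was made into stranded libraries and read from 1 end over 50 bases. After FastQC 0.11.3 and alignment with HISAT2 2.0.4, the authors deposited raw counts per gene from summarizeOverlaps, without normalization. The submitters' processing notes name the build mm10 and the study's methods mm11. Strand setting and overlap mode are not given in the sources used here. Symbols and positions came from GENCODE M21 (GRCm38), which matched 39495 of 39676 identifiers.

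The members and gene lists were chosen with earlier results of these data known. Counts were fitted in edgeR 4.0.16 (R 4.3.3) over all 30 tumors, with TMM scaling, genes with a mean count of at least 10 and the quasi-likelihood test. Calls used a Benjamini-Hochberg adjusted p under 0.05 over 15926 genes. Log2 CPM used a prior count of 2. Differences between genes within a tumor and correlations were tested with 100000 permutations, whose smallest p is 1e-05, adjusted within each family. Lengths were all exons of a gene. Named genes were the members, the cluster neighbors, the other and atypical receptors, the largest rise and fall of the signaling and inducer lists, set markers, the highest gene of a quoted list and the 3 genes most alike each member. C1qc, Fcgr1, Cd68, Mertk, Kdr, Ccr8 and the TATAAA search were added after the values were seen. Replicates are labelled as biological, and no 2 libraries of a type were alike within counting noise. Alternatives were DESeq2 1.42.0, its size factors, library totals, other filters, 20 tumors only, a replicate block and leaving out each tumor. Rac2, F13a1, Adgre1, Nr4a1, Mlana, Pmel and Dct were not analysed here. One gene of the receptor list is not reported here.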

Additional observations from a re-analysis of the deposited data

Results flagged for a closer look

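Of the 15 sets of 10 tumors searched (5 genes in 3 types), 4 held a tumor whose gap to its nearest neighbor was a larger share of the range than Dixon's 95% critical value for 10 values, where chance gives about 1 in 20 sets, or 0.75 of 15. All were the lowest tumor of their type. GFP tumor 7 had a Ccl2 level of 4.48 log2 CPM, with the next tumor at 5.19, and a Ccl8 level of 5.90 log2 CPM, with the next at 7.20. IFNα9 tumor 5 had a Ccl2 level of 5.66 log2 CPM, with the next at 6.40, and a Ccl7 level of 5.76 log2 CPM, with the next at 6.74. Both tumors were also the lowest of their type in Ptprc, at 19.5 and 161 CPM. The part of leukocyte content in these low values was not tested.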

How the results depend on the processing

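The 15 changes of the 5 genes and the 3 counts of members called kept their direction and their side of the threshold under DESeq2, its size factors, library totals, both other filters, the fit on 20 tumors, the replicate block and each of the 30 fits without 1 tumor. The 3 smallest called changes were Ccl12 in IFNα9 against IFNα4 tumors, with −0.68 to −0.53 on the log2 scale and an adjusted p of at most 0.0364 when tumors were left out, Ccl8 in the same comparison, with 0.71 to 0.88 and at most 0.0161, and Ccl8 in IFNα9 against GFP tumors, with −0.91 to −0.69 and at most 0.00478. With the replicate block, Ccl8 changed by −1.53 in IFNα4 against GFP tumors and Ccl2 by −0.92 in IFNα9 against IFNα4 tumors. Tumors that share a number correlated at −0.27 to 0.30, so the numbers were not taken as a pairing. Of the differences and correlations, 11 lost their call without GFP tumor 7, and 1 with library totals (Ccl2 with Ccl7 in IFNα9 tumors, adjusted p = 0.0572). Without GFP tumor 7, p was adjusted only over the tests that involve GFP tumors. The differences were not tested without any other tumor. Shares of ligands depended on the length: without correction Ccl8 made up 65.4%, 13.3% and 32.0% in GFP, IFNα4 and IFNα9 tumors, and Ccl2 made up 14.8% and 27.4% in GFP and IFNα9 tumors. The mean of Ccl7, at 32.5%, was then about level with that of Ccl8 in IFNα9 tumors. With the first listed transcript, chosen after the values were seen, Ccl8 made up 73.8%, 18.6% and 41.0% and Ccl2 10.6%, 31.0% and 22.3%. Counts per gene give no cell of origin, protein level or secretion, and 1 time point gives no course.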
